A study of Sus scrofa with 599 samples.

Results

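The greater omentum (GOM) and the mesenteric adipose tissue (MAD) are both visceral fats, and they were compared here in adult female Bama pigs, a miniature breed. The pigs had gained weight on a high-fat diet (WG). All of these pigs ate this diet, and the groups differ by the tissue taken. The paper states that every fat studied was taken from each carcass, so both groups draw on the same set of pigs. The members are the RNA-seq and Hi-C libraries labelled as WG GOM or WG MAD, which are 45 and 36 RNA-seq and 46 and 37 Hi-C libraries. These 164 libraries are part of the 599 samples of the series, which also hold pigs on a normal diet (NC), pigs kept on a restricted diet after weight gain (WL), and another visceral and a subcutaneous fat. H3K27ac ChIP-seq of 15 WG GOM and 14 WG MAD samples entered as 3 tables of enhancer regions per tissue, each pooled by the authors over a numbered subgroup of samples. These subgroups are taken to be those that the paper formed by likeness of cell makeup. RNA-seq was made from total RNA of the tissue, so each value is an average over all cell types in it. In such data, fewer cells of a type and less RNA per cell cannot be told apart. For Hi-C, the paper's methods take the upper layer of the fixed and spun tissue, which holds the adipocytes. The mix of cells behind the A-B index may therefore differ from that behind the RNA. The labels number the replicates within a tissue and do not say that a number marks a pig, so p-values measure the spread between these libraries. The main tests treat the libraries as unpaired, and a fit with the replicate number as a block is given in the closing section.

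The greater omentum is an apron of fat that hangs from the stomach and is covered by mesothelium. This sheet of flat, epithelium-like cells makes keratins and lines the abdominal cavity. The omental mesothelium carries the transcription factor WT1 and the retinoic acid enzyme ALDH1A2, and it surrounds milky spots, small clusters of macrophages and lymphocytes. Mesenteric fat lies between the sheets that hold the intestine and encloses the arteries, veins, lymph vessels and nerves that serve it. Fat depots also keep traces of where they arose in the embryo as different sets of patterning transcription factors, among them the HOX genes. The comparison asks which genes and which stretches of chromatin set these visceral fats apart when both have expanded on the same diet.

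Estimated counts on protein-coding genes (PCGs) ranged from 3337098 to 20910121 per library in GOM (median 16385117) and from 4841230 to 22797044 in MAD (median 17408757). PCGs held under 90% of the summed TPM (a level per transcript length, scaled to the same total in each library) in 4 GOM and 2 MAD libraries. The share of counts on mitochondria-encoded genes had a median of 1.22% in GOM and 2.90% in MAD. In 3 libraries the expression stood apart from the others. WG GOM replicate 35 had the lowest count and a median correlation of 0.639 with the other libraries, against 0.88 for the next lowest library. It was listed at 0 for genes such as UPK1B, ACTG2, CNN1 and CCL2. WG MAD replicate 31 held 136 TPM of MS4A1 and 87.1 TPM of CD79B, both genes of B cells, where the next highest MAD libraries held 12.5 and 9.61 TPM. WG MAD replicate 39 held 174 TPM of PDZK1 and 333 TPM of BHMT, genes known from kidney and liver, against at most 6.18 and 38.7 TPM in the other MAD libraries. The main results that turn on these libraries are given with and without them. The libraries of both tissues also lay mostly well below or well above 0 on the first principal component, the main axis of variation in expression. On it, replicates 7 and 34 of GOM stood at -52.5 and 55.8, with 8.61% and 0.83% of counts on mitochondria-encoded genes. Replicates 14 and 20 of MAD stood at -60.5 and 43.1, with 7.85% and 0.78%. A larger share of MAD than of GOM libraries lay below 0. No fit held a term for this axis, and its cause was not tested.

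Among 13744 PCGs tested with edgeR, 524 were differentially expressed genes (DEGs) with higher expression in GOM, 3.81% of those tested, and 338 with higher expression in MAD, 2.46%. A DEG had a fold change above 1.5 and, after adjustment across the tested genes, a p below 0.05. A log2 fold change is given as GOM over MAD and comes from the counts, whereas levels are in TPM. In 13 genes, 0.0946% of those tested, every GOM library lay above every MAD library, and the reverse held for 0 genes. The 8 of these 13 with a gene symbol were SERPINE3, BARX1, CRB2, BNC1, TLX1, GATA5, KRT8 and ISL1. Without the 3 libraries that stood apart, an alternative chosen after seeing the data, 543 DEGs were higher in GOM and 345 in MAD, with 475 and 298 of the DEGs above among them.

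The DEG with the largest fold difference was SERPINE3, a member of the serine protease inhibitor family (ENSSSCG00000009385, chr11:16465521-16500580, minus strand). Its level was 1.32 to 70.4 TPM (median 10.4) in GOM and 0 to 1.12 TPM (median 0.109) in MAD (log2 fold change 6.42, SE 0.35, adjusted p = 3.3e-28). The homeobox gene BARX1, which patterns the stomach in the embryo (ENSSSCG00000008081, chr3:43284609-43288269, minus strand), stood at 2.32 to 38.3 TPM (median 6.59) in GOM and 0 to 0.351 TPM (median 0.0336) in MAD (log2 fold change 6.36, SE 0.28, adjusted p = 1e-33). It was listed at 0 in 18 of the 36 MAD libraries. CRB2, a protein of epithelial polarity (ENSSSCG00000005584, chr1:264277549-264301731, plus strand), followed. It had 1.69 to 22.9 TPM (median 8.83) in GOM and 0.00795 to 0.856 TPM (median 0.0782) in MAD (log2 fold change 6.21, SE 0.27, adjusted p = 1e-33). For these 3 genes, the lowest GOM library was above the highest MAD library. The highest GOM values of SERPINE3 and BARX1 were those of replicate 35, and the next highest were 53.6 and 14.4 TPM.

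Keratin 8 (KRT8), a filament protein of epithelia and mesothelium (ENSSSCG00000000252, chr5:18172423-18180277, minus strand), was the most abundant of the leading GOM genes. It ranged over 23.5 to 584 TPM (median 111) in GOM and 0.597 to 17.9 TPM (median 1.97) in MAD (log2 fold change 5.18, SE 0.29, adjusted p = 1.8e-27). All 45 GOM libraries lay above all 36 MAD libraries. Its companion KRT7 had 3.02 to 121 TPM (median 21.6) in GOM and 0.0627 to 9.27 TPM (median 0.916) in MAD (log2 fold change 4.13, SE 0.29, adjusted p = 1.1e-21). For KRT7, 35 of 45 GOM libraries lay above every MAD library. The membrane protein UPK1B, a uroplakin also made by mesothelium, had 0 to 108 TPM (median 36.9) in GOM and 0 to 2.38 TPM (median 0.6904) in MAD (log2 fold change 5.27, SE 0.25, adjusted p = 4e-32). The single GOM library at 0 was replicate 35, and the other 44 lay above every MAD library. The tight junction protein CLDN3 and the protease inhibitor CST6 completed the leading group together with BNC1 and GATA5, with log2 fold changes of 4.51 and 4.17 (adjusted p = 5.2e-18 and 6e-23).

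**Figure D1:**
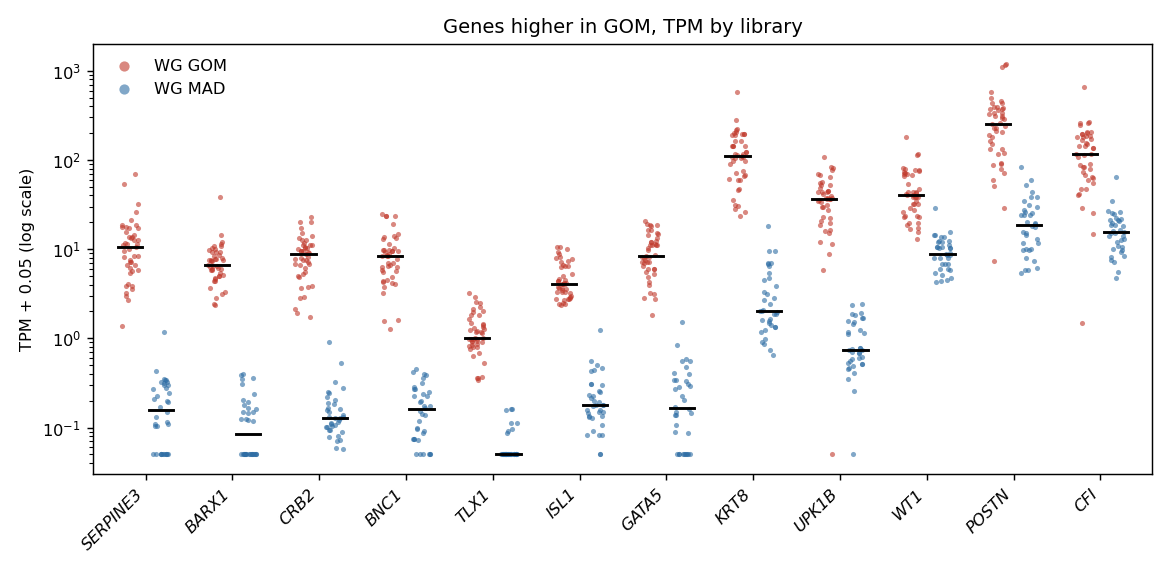
TPM of 12 genes with higher expression in GOM, 1 point per RNA-seq library (45 WG GOM in red, 36 WG MAD in blue), on a log axis after adding 0.05; black bars are medians. The clouds of SERPINE3, BARX1, CRB2, BNC1, TLX1, ISL1, GATA5 and KRT8 do not overlap, and the lone GOM point at the bottom for UPK1B is replicate 35.

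Of the 20 mesothelial markers listed, 13 had counts and 12 were tested, and 11 of these were DEGs with higher expression in GOM and 0 with higher expression in MAD. Their median log2 fold change was 3.72, where the median over all genes tested was -0.01. The summed level of the 13 markers was 100.1 to 1194 (median 392.3) TPM in GOM and 20.8 to 124 (median 39.1) TPM in MAD, and 44 of 45 GOM libraries exceeded every MAD library. GPM6A, a membrane glycoprotein, had 4.79 to 228 TPM (median 66.2) in GOM and 0.892 to 13.8 TPM (median 3.87) in MAD (log2 fold change 3.82, SE 0.23, adjusted p = 4.2e-25). ALOX15, a lipoxygenase of unsaturated fatty acids, had 0.879 to 193 TPM (median 18.5) in GOM and 1.03 to 6.02 TPM (median 2.17) in MAD (log2 fold change 3.76, SE 0.32, adjusted p = 4.2e-17). The GOM and MAD ranges of both genes overlapped, with 43 and 34 of 45 GOM libraries above every MAD library. The other called markers were BNC1, UPK1B, KRT8, KRT7, DSP, PKHD1L1, WT1, RSPO1 and CLDN15, and CALB2 had a median under 0.1 TPM. The same count of 11 and 0 held in all 14 alternatives.

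The adhesion genes CDH1, DSP and DSG2 were higher in GOM as well. E-cadherin (CDH1), which joins epithelial cells (ENSSSCG00000025652, chr6:18075487-18155986, minus strand), had 1.93 to 52.7 TPM (median 13.3) in GOM and 0.278 to 8.503 TPM (median 0.917) in MAD (log2 fold change 3.51, SE 0.25, adjusted p = 1.2e-21). The desmosome genes DSP and DSG2, whose proteins rivet cells to each other, had medians of 11.3 and 10.99 TPM in GOM and 0.738 and 0.981 TPM in MAD (log2 fold changes 3.68 and 3.38, adjusted p = 2.9e-26 and 3.5e-26). Of GOM libraries, 32 lay above every MAD library for CDH1 and 43 for DSG2. Mesothelial levels were not 0 in MAD: its KRT8 had a median of 1.97 TPM and its WT1 8.85 TPM.

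Transcription factors that pattern the embryo formed a second group. Of 28 such factors tested outside the HOX clusters, 9 were DEGs with higher expression in GOM and 6 with higher expression in MAD (median log2 fold change of the 28 0.18). The zinc finger BNC1, which marks mesothelium, had 1.21 to 24.9 TPM (median 8.33) in GOM and 0 to 0.409 TPM (median 0.1095) in MAD (log2 fold change 5.98, SE 0.28, adjusted p = 3.2e-32). The homeobox gene TLX1, needed for the spleen to form, was low in GOM and near 0 in MAD. The range was 0.287 to 3.204 TPM (median 0.967) in GOM and 0 to 0.111 TPM (median 0) in MAD (log2 fold change 5.75, SE 0.28, adjusted p = 6.4e-31). MAD libraries were listed at 0 for TLX1 in 28 of 36 cases. ISL1, a LIM homeobox factor of heart and pancreas mesenchyme, had 2.34 to 10.6 TPM (median 4.02) in GOM and 0 to 1.2 TPM (median 0.128) in MAD (log2 fold change 4.63, SE 0.23, adjusted p = 5.8e-31). In all 3 genes the lowest GOM library was above the highest MAD library.

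The Wilms tumour factor WT1, which is active in mesothelium (ENSSSCG00000013316, chr2:28411467-28456007, plus strand), had 12.9 to 182 TPM (median 40.2) in GOM and 4.25 to 28.9 TPM (median 8.85) in MAD (log2 fold change 2.29, SE 0.17, adjusted p = 1.2e-20). Of GOM libraries, 31 of 45 lay above every MAD library. The GATA factors GATA5 and GATA6, which act in gut and heart development, had log2 fold changes of 5.45 (SE 0.295, adjusted p = 3.5e-28) and 1.38 (SE 0.14, adjusted p = 1.5e-13). GATA5 was close to 0 in MAD, with a median of 0.116 TPM against 8.22 TPM in GOM. GATA6 had medians of 24.4 TPM in GOM and 9.85 TPM in MAD. NKX3-2 and HAND2, factors of gut mesenchyme, completed the group of 9 with log2 fold changes of 1.91 and 1.43 (adjusted p = 2.4e-14 and 6.3e-15). TCF21, a mesenchymal factor of visceral organs, was no DEG and had 2.61 to 26.7 TPM (median 6.73) in GOM and 3.38 to 21.8 TPM (median 8.33) in MAD (log2 fold change -0.21, SE 0.15, adjusted p = 0.40).

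Since the mesothelial level varied widely among GOM libraries, the 9 factors were set against it within GOM, as log2(TPM + 1) of the factor and of the summed other markers over the 45 libraries. BNC1 followed the markers most closely, with Pearson's r = 0.84 (permutation p = 1e-05, the smallest that 100000 permutations can give, adjusted p = 2e-05 over 9 factors) and Spearman's rho = 0.85 (permutation p = 1e-05, adjusted p = 3e-05). Leaving out the 2 libraries farthest from the median marker level gave r = 0.83. TLX1 did not follow them, with r = -0.15 (permutation p = 0.34, adjusted p = 0.34), rho = -0.14 (permutation p = 0.35, adjusted p = 0.35) and r = 0.0002 without the 2 libraries.

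Between these extremes lay r = 0.73 and rho = 0.69 for GATA5 (permutation p = 1e-05 and 1e-05, adjusted p = 2e-05 and 3e-05, r = 0.73 without the 2 libraries), and r = 0.67 and rho = 0.69 for GATA6 (permutation p = 1e-05 and 1e-05, adjusted p = 2e-05 and 3e-05, r = 0.63 without the 2 libraries). HAND2 and ISL1 were looser, with r = 0.63 and rho = 0.58 for HAND2 (permutation p = 1e-05 and 8e-05, adjusted p = 2e-05 and 1.8e-04, r = 0.57 without the 2 libraries), and r = 0.49 and rho = 0.49 for ISL1 (permutation p = 6.5e-04 and 7.4e-04, adjusted p = 0.0012 and 0.0013, r = 0.399 without the 2 libraries). The lowest values past an adjusted p of 0.05 were r = 0.46 and rho = 0.42 for WT1 (permutation p = 0.0014 and 0.0044, adjusted p = 0.0022 and 0.0056, r = 0.45 without the 2 libraries), and r = 0.43 and rho = 0.45 for BARX1 (permutation p = 0.0034 and 0.0022, adjusted p = 0.0043 and 0.0032, r = 0.45 without the 2 libraries). NKX3-2 missed it, with r = 0.21 and rho = 0.29 for NKX3-2 (permutation p = 0.17 and 0.054, adjusted p = 0.20 and 0.061, r = 0.22 without the 2 libraries). Within the 41 GOM libraries with at least 90% of TPM on PCGs, r was 0.85 for BNC1, 0.78 for GATA5, 0.47 for WT1 and -0.12 for TLX1. These values share the total of each library, and the 4 libraries below 90% are too few for a value of their own. They take no account of the main axis of variation among the libraries. The part of mesothelial cells in the differences between the depots was not tested.

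**Figure D2:**
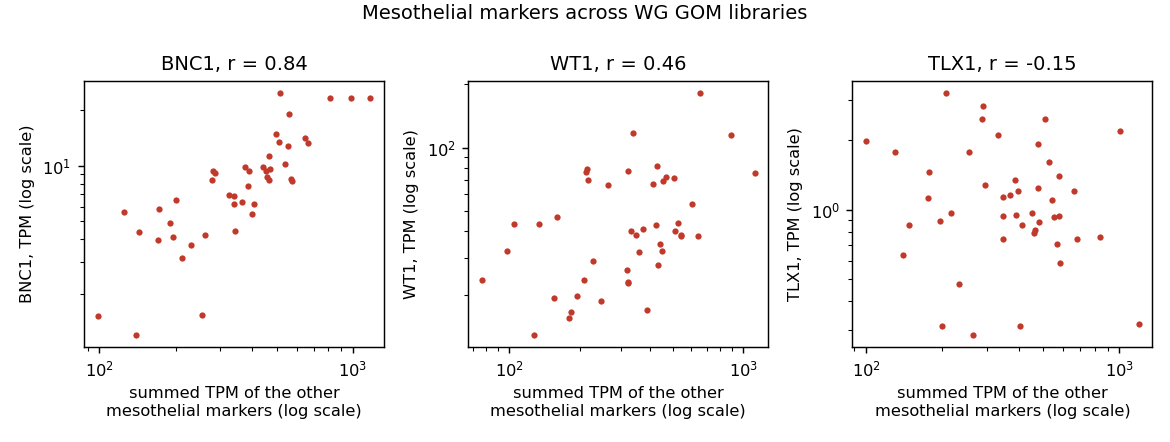
BNC1, WT1 and TLX1 against the summed TPM of the other mesothelial markers in 45 WG GOM libraries (1 point each, both axes log). The r in each title is Pearson's r of log2(TPM + 1): 0.84 for BNC1, 0.46 for WT1 and -0.15 for TLX1, whose points show no slope.

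The patterning factors of MAD were another set. SHOX2, a homeobox factor of limb and heart, had 0.641 to 19.4 TPM (median 2.57) in GOM and 4.15 to 26.5 TPM (median 14.6) in MAD (log2 fold change -2.32, SE 0.18, adjusted p = 2.1e-19). The GOM library at 19.4 TPM was replicate 35, and 6 of 36 MAD libraries lay above every GOM library. The next highest GOM library held 5.63 TPM of SHOX2. NKX2-3, a homeobox factor of gut mesenchyme and of the vessels of gut lymphoid tissue, had 1.44 to 11.8 TPM (median 2.9) in GOM and 1.52 to 13.1 TPM (median 6.97) in MAD, with overlapping ranges (log2 fold change -1.15, SE 0.13, adjusted p = 5.2e-12). Replicate 35 held the highest GOM value of NKX2-3 too, and the next GOM library held 5.56 TPM. IRX3, an Iroquois factor linked to fat cell development, had 0.117 to 11.9 TPM (median 1.28) in GOM and 1.42 to 17.1 TPM (median 3.58) in MAD (log2 fold change -1.99, SE 0.24, adjusted p = 8.5e-11). EMX2, PRRX1 and OSR2 were the other 3 factors higher in MAD (log2 fold changes -2.26, -1.06 and -0.75, adjusted p = 2.7e-09, 8.8e-08 and 0.033). EN1 was too low to be tested, with 0 to 0.856 TPM (median 0.258) in GOM and 0 to 1.08 TPM (median 0.316) in MAD.

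In the HOX clusters, whose genes set position along the body axis, most DEGs were higher in MAD. Of 5 HOXC genes tested, 3 were DEGs higher in MAD, namely HOXC9, HOXC8 and HOXC6 (log2 fold changes -1.86, -1.66 and -1.02, adjusted p = 5.4e-07, 1.1e-07 and 0.0082). All were low, HOXC9 for one with 0 to 8.903 TPM (median 0.414) in GOM and 0.218 to 6.498 TPM (median 1.401) in MAD. HOXA9 and HOXD8 were also higher in MAD, as 1 of 6 HOXA and 1 of 4 HOXD genes tested, and HOXD8 had 4.21 to 14.9 TPM (median 9.704) in GOM and 6.04 to 48.3 TPM (median 14.9) in MAD (log2 fold change -0.95, SE 0.14, adjusted p = 5.9e-08). HOXA2 was the only HOX DEG higher in GOM, at a log2 fold change of 0.67 (adjusted p = 0.018), and it was not called without WG GOM replicate 35. Of 7 HOXB genes tested with edgeR, 0 were DEGs, by DESeq2 as well, and 3 were higher in GOM at an unadjusted p below 0.05.

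Signals that act on neighbouring cells differed in both directions. Of 31 tested genes of WNT, BMP and TGF-beta signalling, 7 were DEGs higher in GOM and 4 were DEGs higher in MAD. BMP3, which restrains other BMPs, had 1.37 to 37.4 TPM (median 11.6) in GOM and 0 to 4.21 TPM (median 0.622) in MAD (log2 fold change 3.93, SE 0.27, adjusted p = 2e-22). The WNT enhancer RSPO1 had 7.45 to 38.5 TPM (median 19.7) in GOM and 1.93 to 9.12 TPM (median 4.07) in MAD (log2 fold change 2.08, SE 0.13, adjusted p = 8.4e-25). Of the 45 GOM libraries, 39 lay above every MAD library for BMP3 and 41 for RSPO1. WNT9A and BMP7, both secreted ligands, had log2 fold changes of 1.31 and 1.49 (adjusted p = 4.4e-14 and 1.3e-08), and DKK3, WNT5A and RSPO3 were the other 3. The ligands BMP5 and WNT2 were higher in MAD, with medians of 0.4396 and 0.642 TPM in GOM and 1.52 and 1.61 TPM in MAD (log2 fold changes -2.02 and -1.54, adjusted p = 9.7e-12 and 2.3e-09), together with the extracellular inhibitors SFRP4 and FST.

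Retinoic acid genes made 3 DEGs higher in GOM and 1 higher in MAD among 15 tested. ALDH1A2, which makes retinoic acid from retinal, had 35.3 to 203 TPM (median 106) in GOM and 12.4 to 107 TPM (median 46.9) in MAD (log2 fold change 1.16, SE 0.12, adjusted p = 6.3e-13). CRABP1, which binds retinoic acid in the cytoplasm, had 0 to 30.9 TPM (median 3.35) in GOM and 0 to 1.82 TPM (median 0.323) in MAD (log2 fold change 3.29, SE 0.33, adjusted p = 1.3e-13). RARRES2, a secreted adipokine also called chemerin, had 214 to 2353 TPM (median 523) in GOM and 125 to 514 TPM (median 274) in MAD (log2 fold change 0.94, SE 0.13, adjusted p = 1.1e-08). The ranges of all 3 overlapped, with 22, 31 and 23 of 45 GOM libraries above every MAD library. RXRG, a nuclear receptor partner, was the gene higher in MAD (log2 fold change -1.61, adjusted p = 2.4e-10). Of 10 tested genes of steroid hormones, HSD11B1, which activates glucocorticoids, was higher in GOM (log2 fold change 0.801, adjusted p = 4.5e-08) and the progesterone receptor PGR was higher in MAD (log2 fold change -0.64, adjusted p = 1.2e-05).

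Complement, the cascade of plasma proteins that marks microbes and debris, was higher in GOM for 4 of 15 tested genes and higher in MAD for 1. CFI, which cleaves C3b, had 1.42 to 652 TPM (median 117) in GOM and 4.75 to 65.01 TPM (median 15.4) in MAD (log2 fold change 2.94, SE 0.24, adjusted p = 1.7e-18). CFB of the alternative pathway had 0.332 to 157 TPM (median 39.7) in GOM and 1.08 to 22.6 TPM (median 5.22) in MAD (log2 fold change 2.86, SE 0.25, adjusted p = 5.7e-17). C4A, of the classical pathway, had 13.4 to 467 TPM (median 146) in GOM and 7.47 to 92.2 TPM (median 25.5) in MAD (log2 fold change 2.401, SE 0.19, adjusted p = 2e-18). The central component C3 had a log2 fold change of 2.005 (adjusted p = 2.8e-13). Between 29 and 36 of 45 GOM libraries exceeded every MAD library for these 4 genes. The lectin pathway protease MASP1 was the member higher in MAD, at a log2 fold change of -0.904 (adjusted p = 3.4e-08). The summed level of the 16 complement genes in the table was 1464 to 5066 (median 3011) TPM in GOM and 930.3 to 3078 (median 1764) TPM in MAD, with 20 GOM libraries above every MAD library. The median log2 fold change of the 15 tested was 0.43.

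Matrix genes gave 4 DEGs in each direction among 34 tested (median log2 fold change -0.28, below 0 for 24). Without regard to the fold, 4 were higher in GOM and 11 in MAD at an adjusted p below 0.05. The counts of DEGs higher in GOM and in MAD were 4 and 6 without GOM replicate 35, 4 and 5 without MAD replicate 31, and 4 and 7 without all 3 libraries that stood apart. The last fit added COL4A1, COL4A2 and THBS2 (log2 fold changes -0.597, -0.66 and -0.62). Periostin (POSTN), a matrix protein of tissue under repair, had 7.37 to 1205 TPM (median 253) in GOM and 5.41 to 83.2 TPM (median 18.6) in MAD (log2 fold change 3.68, SE 0.28, adjusted p = 1.5e-19). Of its GOM values, 39 of 45 lay above every MAD value. Fibronectin (FN1) had 21.5 to 2229 TPM (median 462) in GOM and 56.8 to 573 TPM (median 219) in MAD (log2 fold change 1.24, SE 0.21, adjusted p = 2.2e-06), and COL8A1 and COL12A1 were the other members higher in GOM. Fibrillin (FBN1), the backbone of microfibrils, was higher in MAD, with 83.04 to 541 TPM (median 204) in GOM and 184 to 2167 TPM (median 507) in MAD (log2 fold change -1.32, SE 0.12, adjusted p = 2.4e-15). THBS1, LOXL1 and COL6A6 were the other members higher in MAD (log2 fold changes -0.94, -0.77 and -0.69, adjusted p = 6.3e-05, 3.2e-06 and 0.027).

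The contractile genes ACTG2, MYH11, DES, CNN1 and ACTA2 were higher in MAD. ACTG2, the actin of visceral smooth muscle (ENSSSCG00000008294, chr3:69097366-69121542, minus strand), had 0 to 20.3 TPM (median 2.95) in GOM and 5.75 to 149 TPM (median 26.4) in MAD (log2 fold change -2.77, SE 0.26, adjusted p = 6.2e-15). In 22 of 36 MAD libraries it exceeded every GOM library. Smooth muscle myosin (MYH11) had 5.01 to 126 TPM (median 34.4) in GOM and 31.9 to 387 TPM (median 93.8) in MAD (log2 fold change -1.53, SE 0.21, adjusted p = 1.3e-08). DES and CNN1, a filament and an actin-binding protein, had log2 fold changes of -1.91 and -1.87 (adjusted p = 2e-16 and 3.5e-13). With ACTA2 (log2 fold change -0.77, adjusted p = 3.6e-05), 5 of 11 smooth muscle and pericyte markers were DEGs higher in MAD and 0 were higher in GOM. The pericyte markers RGS5, NOTCH3 and PDGFRB were no DEGs, with log2 fold changes of -0.02, -0.31 and -0.21 (adjusted p = 0.95, 0.43 and 0.35). The summed level of the list was 351 to 1697 (median 817) TPM in GOM and 649 to 2349.9 (median 1227) TPM in MAD, and 4 MAD libraries exceeded every GOM library. Its median log2 fold change was -0.34. Nerve and glia markers, of which 5 were tested, included the Schwann cell genes SOX10 and CDH19 as DEGs higher in MAD (log2 fold changes -0.81 and -0.67, adjusted p = 0.016 and 6.6e-04).

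Fat progenitor genes were higher in MAD for 3 of 14 tested and higher in GOM for 1 (median log2 fold change -0.08). PI16, a marker of the least committed fibroblasts of fat, had 40.05 to 235 TPM (median 128) in GOM and 133 to 852 TPM (median 391) in MAD (log2 fold change -1.64, SE 0.13, adjusted p = 4.4e-19). In 30 of 36 MAD libraries it lay above every GOM library. Its companion MFAP5, a microfibril protein of the same cells, had 19.4 to 399 TPM (median 203) in GOM and 149.7 to 1023 TPM (median 365) in MAD (log2 fold change -0.97, SE 0.15, adjusted p = 3.1e-07). CD248, a surface protein of stromal cells, had a log2 fold change of -0.86 (adjusted p = 0.017). PDGFRA, a receptor of fat progenitors, did not reach the fold limit, with 11.6 to 353 TPM (median 142) in GOM and 43.7 to 182 TPM (median 98.5) in MAD (log2 fold change 0.398, SE 0.11, adjusted p = 0.0086). CLEC11A was the member higher in GOM, and this call was lost without WG GOM replicate 35.

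Genes that make triglycerides were higher in MAD where they differed. PCK1, which makes the glycerol backbone for triglycerides from non-sugar carbon (ENSSSCG00000007507, chr17:57930507-57936523, plus strand), had 0.863 to 53.9 TPM (median 12.6) in GOM and 20.5 to 712 TPM (median 68.6) in MAD (log2 fold change -2.68, SE 0.27, adjusted p = 1.8e-13). It was higher in 22 of 36 MAD libraries than in every GOM library. The highest value was that of MAD replicate 39, without which the log2 fold change was -2.44 (adjusted p = 4.9e-13). LPIN1, AQP3 and GPD1 were also higher in MAD (log2 fold changes -0.99, -0.64 and -0.63, adjusted p = 7.4e-08, 0.0016 and 0.013), so that 4 of 11 triglyceride genes were DEGs higher in MAD and 0 were higher in GOM. In the control of lipolysis, the hormone-sensitive lipase LIPE and the receptor ADRB1 were higher in MAD, and the antilipolytic receptor ADRA2A and the lipase inhibitor G0S2 in GOM, out of 17 tested. Of the 17 log2 fold changes, 14 were below 0 (median -0.32). Without regard to the fold, 2 of the 17 were higher in GOM and 5 in MAD at an adjusted p below 0.05. LIPE had 158 to 707 TPM (median 399) in GOM and 279.7 to 1197 TPM (median 619.7) in MAD (log2 fold change -0.64, SE 0.11, adjusted p = 6e-06). ADRA2A had 0.753 to 14.2 TPM (median 4.07) in GOM and 0.5997 to 8.33 TPM (median 2.02) in MAD (log2 fold change 0.81, SE 0.17, adjusted p = 2.3e-04). G0S2 was near the limit (adjusted p = 0.046) and lost its call without WG GOM replicate 35. PNPLA2, also on the adipocyte list, was no DEG in the main fit (log2 fold change -0.59). It was a DEG higher in MAD without GOM replicate 35 (-0.79, edgeR adjusted p = 0.0024) or without MAD replicate 31 (-0.62, edgeR adjusted p = 0.047). With the replicate number as a block it was called too (-0.73, edgeR adjusted p = 1e-06). Further, ANGPTL4, which inhibits lipoprotein lipase, and UCP3 were higher in MAD as 1 of 13 genes of fatty acid uptake and 1 of 20 of fatty acid oxidation.

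Of 13 adipocyte markers tested, PLIN4, LIPE and GPD1 were DEGs higher in MAD and 0 were higher in GOM. Without regard to the fold, 7 of the 13 were higher in MAD at an adjusted p below 0.05 and 0 were higher in GOM. PLIN4, a lipid droplet coat protein, had 132 to 1551 TPM (median 733) in GOM and 376 to 4895 TPM (median 1283) in MAD (log2 fold change -0.84, SE 0.15, adjusted p = 1.4e-05). The summed level of the adipocyte markers was 5488 to 28199.6 (median 16874) TPM in GOM and 13259.8 to 29854 (median 21400.2) TPM in MAD, with a median log2 fold change of -0.41 over the 13 genes, so that fat cell genes were abundant in every library. PPARG, the master factor of fat cells, had 77.2 to 248 TPM (median 141) in GOM and 92.8 to 319 TPM (median 177) in MAD and stayed under the fold limit (log2 fold change -0.36, SE 0.09, adjusted p = 0.0031), as did ADIPOQ, the gene of adiponectin (log2 fold change -0.46, SE 0.15, adjusted p = 0.028). Leptin (LEP) did not differ beyond its spread, with 53.05 to 1098 TPM (median 375) in GOM and 77.9 to 805 TPM (median 322) in MAD (log2 fold change 0.11, SE 0.17, adjusted p = 0.74). Of 17 genes of de novo lipogenesis, edgeR and DESeq2 called 0, and 5 were higher in MAD at an unadjusted p below 0.05. Without GOM replicate 35, fatty acid synthase (FASN) was a DEG higher in MAD (log2 fold change -0.71, adjusted p = 0.045). Of 12 mitochondria-encoded genes, edgeR called 0 and DESeq2 called 1 higher in MAD, and 2 were higher in MAD at an unadjusted p below 0.05. All 12 had log2 fold changes below 0 (median -0.57), and their summed level was 9634 to 277553 (median 28683) TPM in GOM and 11820 to 316020 (median 88973) TPM in MAD, in ranges that overlap. ND6 was a DEG higher in MAD without GOM replicate 35 or without MAD replicate 31 (adjusted p = 0.047 and 0.046). With the replicate number as a block, ND5 and ND6 were DEGs higher in MAD (log2 fold changes -0.59 and -0.66, edgeR adjusted p = 0.021 and 0.0011). Beyond what this block takes up, the levels of these mitochondrial genes were not separated from the main axis of variation among the libraries. STARD4, a sterol carrier, was the 1 DEG among 18 genes of cholesterol synthesis and uptake (higher in MAD, adjusted p = 0.0031), and the call was lost when any of the 3 libraries that stood apart was left out. Without regard to the fold, 5 of these 18 genes were higher in MAD at an adjusted p below 0.05 and 0 in GOM. Among 15 adipokine genes, RARRES2 was higher in GOM and C1QTNF3 in MAD (adjusted p = 0.011).

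**Figure D3:**
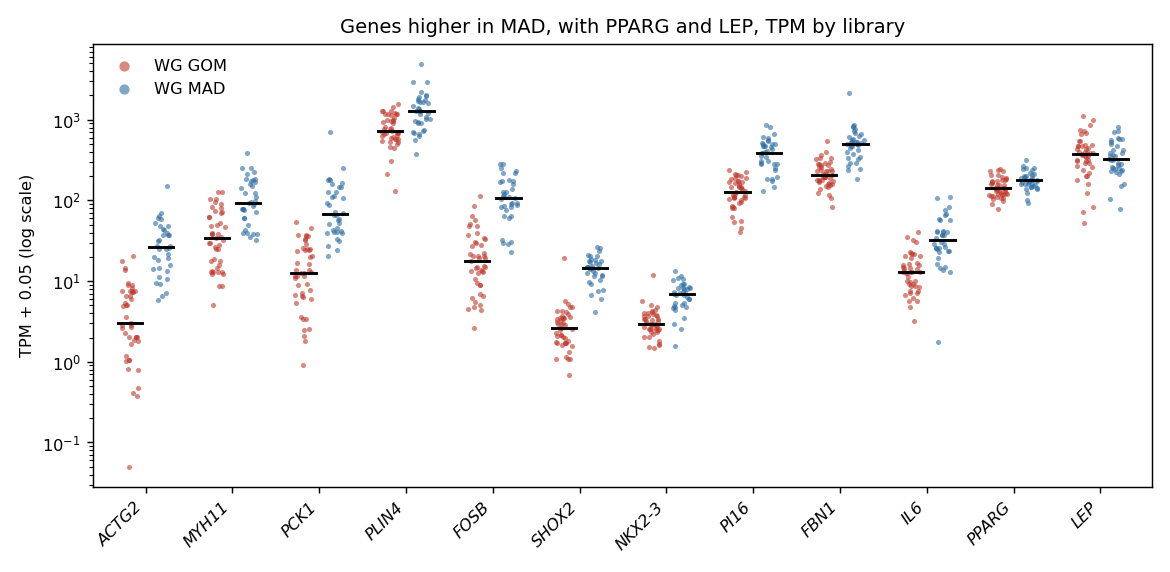
TPM of 10 genes with higher expression in MAD and of PPARG and LEP, 1 point per RNA-seq library (45 WG GOM in red, 36 WG MAD in blue), on a log axis after adding 0.05; black bars are medians. The clouds overlap in every gene shown, and the medians of LEP lie close together, at 375 TPM in GOM and 322 TPM in MAD.

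Inflammatory signals held DEGs in both directions. The cytokine IL6 had 3.14 to 40.9 TPM (median 12.9) in GOM and 1.72 to 109 TPM (median 32.4) in MAD (log2 fold change -1.49, SE 0.19, adjusted p = 3.6e-10). IL1A and PTGS2, the enzyme COX-2, had log2 fold changes of -1.08 and -1.01 (adjusted p = 9.2e-07 and 3.9e-07). With IL16, higher in GOM (log2 fold change 0.64, adjusted p = 9e-05), these were the DEGs among 24 cytokines and innate sensors tested. Without regard to the fold, 5 of the 24 were higher in GOM and 3 in MAD at an adjusted p below 0.05. The median log2 fold change of the 24 was 0.06. The neutrophil attractant CXCL2 had 11.98 to 100.03 TPM (median 37.02) in GOM and 15.8 to 165 TPM (median 80.9) in MAD (log2 fold change -1.15, SE 0.14, adjusted p = 3e-10). CCL2, CCL5 and CCR7 were the other 3 chemokine genes higher in MAD, and the receptors CXCR6 and CX3CR1 were among those higher in GOM, of 25 tested. CCR7 (log2 fold change -0.73, adjusted p = 0.022) lost its call without MAD replicate 31, and CCL2 (log2 fold change -0.597, adjusted p = 0.032) lost it without GOM replicate 35 or without MAD replicate 31. CCL5 passed the fold limit narrowly (log2 fold change -0.59) and fell under it without MAD replicate 31 or 39 (-0.54 and -0.58), so that 1 chemokine gene, CXCL2, was higher in MAD without replicate 31. FOSB, an early-response transcription factor, was among the leading MAD genes, with 2.59 to 114 TPM (median 17.7) in GOM and 23.1 to 284 TPM (median 108) in MAD (log2 fold change -2.395, SE 0.23, adjusted p = 1e-14).

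Few markers of macrophages and of T and NK cells were DEGs. Of 18 macrophage markers (median log2 fold change 0.25), MARCO, a scavenger receptor, and VSIG4, a complement receptor of resident macrophages, were DEGs higher in GOM and 0 were higher in MAD. Without regard to the fold, 6 of the 18 were higher in GOM at an adjusted p below 0.05 and 0 in MAD. VSIG4 had 11.7 to 209.6 TPM (median 87.2) in GOM and 13.5 to 92.2 TPM (median 47.8) in MAD (log2 fold change 0.95, SE 0.14, adjusted p = 1.1e-07). The pan-macrophage gene CD68 had 10.1 to 132 TPM (median 34.4) in GOM and 4.67 to 162 TPM (median 32.9) in MAD (log2 fold change 0.05, SE 0.26, adjusted p = 0.93). Of 6 tested mast cell and granulocyte markers, S100A8, S100A12, HDC and KIT were higher in GOM. S100A8, a calcium-binding protein of neutrophils, had 7.802 to 486 TPM (median 67.1) in GOM and 1.79 to 106 TPM (median 14.6) in MAD (log2 fold change 2.24, SE 0.29, adjusted p = 2.3e-09). Of 16 T and NK cell markers, edgeR and DESeq2 called 0, and 1 was higher in GOM at an unadjusted p below 0.05. Without MAD replicate 31, CD3D, CD2 and GZMK of this list were DEGs higher in GOM (log2 fold changes 0.59, 0.595 and 0.78, adjusted p = 0.0042, 0.0033 and 0.018), and so they were without all 3 libraries. Of 9 blood endothelium markers, both called 0, with PECAM1 at 155 to 602 TPM (median 445) in GOM and 229 to 631 TPM (median 433) in MAD, and 1 was higher in MAD at an unadjusted p below 0.05. The lymphatic list had PDPN, which mesothelium also makes, as its 1 DEG of 7 (higher in GOM, adjusted p = 0.0065). PROX1, which defines lymph vessels, was no DEG (log2 fold change -0.43, adjusted p = 0.41). Of 5 liver genes, APOA1 was a DEG higher in GOM, a call lost without GOM replicate 35, and ALB, which defines liver, had 0.169 to 823 TPM (median 7.93) in GOM and 2.18 to 967 TPM (median 25.03) in MAD (adjusted p = 0.63). The 2 tested markers of lymph node stroma and the 2 of skeletal muscle gave 0 DEGs by either tool and 0 genes at an unadjusted p below 0.05, and no pancreas marker was high enough to be tested.

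B cell genes rested in large part on a single library. MS4A1, which encodes CD20, had 0 to 2.495 TPM (median 0.591) in GOM and 0.07302 to 136 TPM (median 1.18) in MAD (log2 fold change -3.26, SE 0.43, adjusted p = 2.4e-09). Without MAD replicate 31 its log2 fold change was -1.62 (adjusted p = 2e-06) and that of CD79B was -1.21 (adjusted p = 3.5e-04), in place of -2.699. POU2AF1 and TNFRSF13C lost their calls, PAX5 kept it, and the list of 8 tested genes went from 5 DEGs higher in MAD to 3. The plasma cell genes JCHAIN and MZB1, named after their values were seen, were then DEGs with higher expression in GOM, with log2 fold changes of 1.32 and 0.79 (adjusted p = 7.4e-05 and 0.019), whereas with that library they were -0.41 and -0.08. The summed level of the B and plasma cell list was 33.7 to 748 (median 101) TPM in GOM and 30.4 to 4081 (median 58.8) TPM in MAD, and the highest was that of replicate 31. DESeq2 gave no adjusted p to 4 of the 5 called genes and called the other, PAX5.

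Likewise, PDZK1 and EPCAM turned on MAD replicate 39. PDZK1, a scaffold protein of kidney tubules, had 0 to 9.95 TPM (median 0.769) in GOM and 0.215 to 174 TPM (median 0.902) in MAD (log2 fold change -2.28, SE 0.45, adjusted p = 5.4e-05). Without that library its log2 fold change was 0.06 (adjusted p = 0.91). The epithelial adhesion gene EPCAM, the 1 DEG of 2 tested markers of intestinal epithelium, went from -0.804 to 0.202 (adjusted p = 0.45). The defining intestinal markers VIL1, CDX2, MUC2 and TFF3 had medians under 0.1 TPM. The summed level of this list was 1.01 to 4.94 (median 2.13) TPM in GOM and 1.12 to 46.2 (median 2.46) TPM in MAD.

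**Figure D4:**
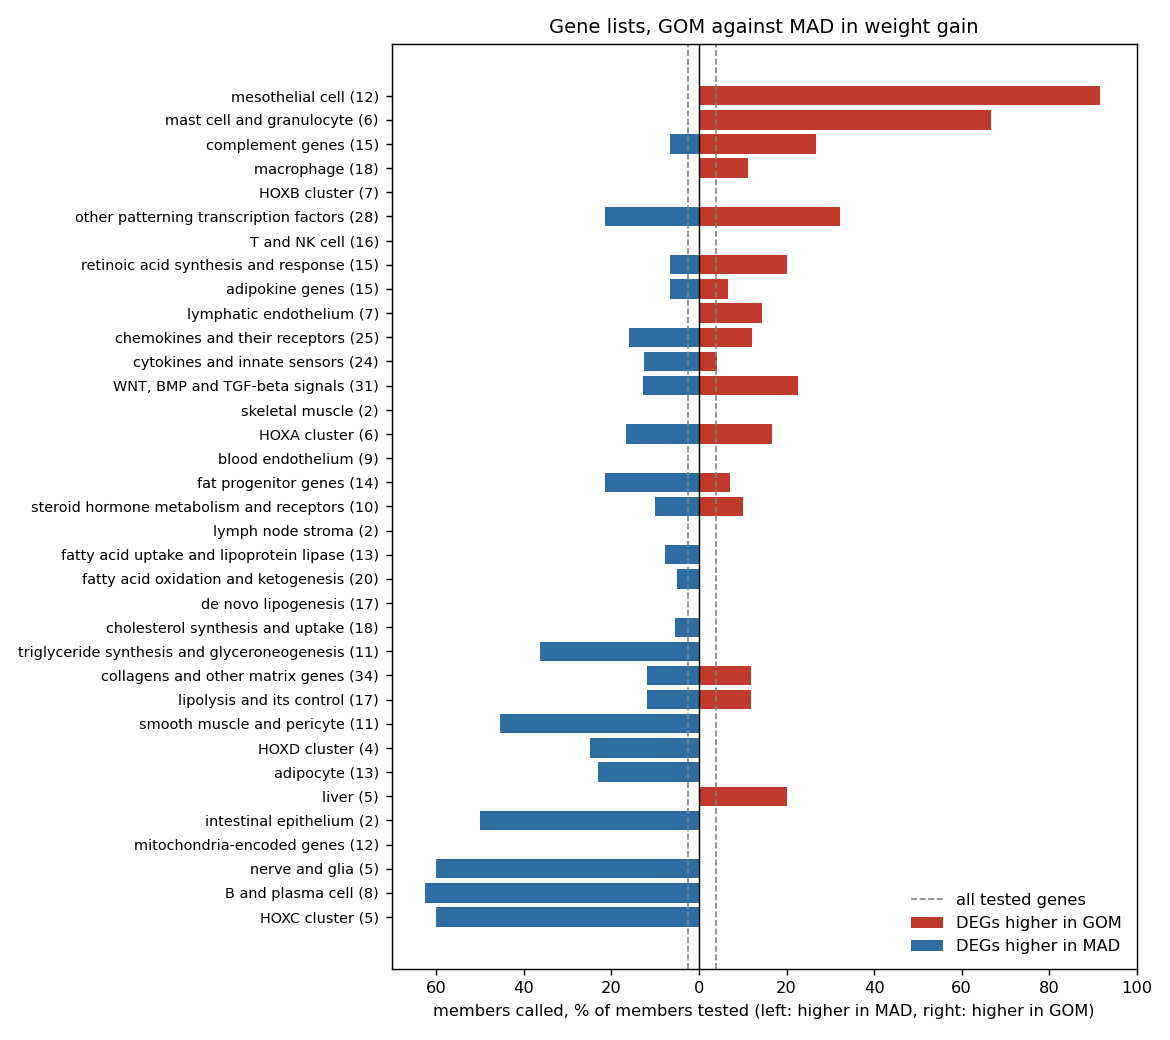
Share of the tested members of each gene list that were DEGs (number tested in brackets), to the right for higher expression in GOM and to the left for higher expression in MAD, ordered by the median log2 fold change of the list; dashed lines are the shares over all 13744 genes, 3.81% and 2.46%. The mesothelial list stands out on the right with 11 of 12 members, and the smooth muscle, HOXC and nerve lists lie on the left. The B cell list falls to 3 of 8 members without MAD replicate 31.

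Hi-C divides the genome into compartment A, where chromatin is open and genes tend to be active, and compartment B, where it is closed. The A-B index is positive in A and negative in B, and it covered 113298 bins of 20 kb on 18 autosomes. The share of bins in A was 44.1 to 49.5% (median 48.5%) in GOM and 43.7 to 50.1% (median 48.8%) in MAD. In 99954 bins, over 80% of the libraries of both tissues lay in the same compartment. Of all bins, 3129 (2.76%) were A/B variables with a higher index in GOM and 1825 (1.61%) with a higher index in MAD. These bins kept their compartment and differed in the mean index by more than 0.75, at a limma adjusted p below 0.05. The bins higher in GOM lay mostly in B, 2081 against 1048 in A, and those higher in MAD mostly in A, 1381 against 444 in B. Bins that switched compartment were rare, with 79 in A in GOM and B in MAD (0.0697%) and 69 the other way (0.0609%), each in over 80% of the libraries. At 70% and 30% of libraries, 317 bins (0.28%) changed frequency toward A in GOM and 332 (0.293%) toward A in MAD.

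The variable bins joined into 811 runs higher in GOM and 679 runs higher in MAD. The longest run higher in MAD spanned 1140 kb, chr6:2020001-3160000 of Sscrofa11.1, and held the starts of the forkhead genes FOXF1, FOXC2 and FOXL1, of MTHFSD, and of IRF8. Its mean index was 3.25 in GOM and 4.596 in MAD. The next spanned 840 kb, chr7:680001-1520000, with FOXF2, FOXC1 and GMDS, at 1.71 and 3.06. FOXC1 was a DEG higher in MAD (log2 fold change -0.79, SE 0.16, adjusted p = 1.1e-04), whereas FOXF1 was no DEG (log2 fold change -0.28, SE 0.14, adjusted p = 0.19). The run with BMP5 (420 kb, chr7:25340001-25760000) and the run with EBF3 (640 kb, chr14:138340001-138980000) each held a DEG higher in MAD. In GOM, the longest run was 1120 kb at chr17:55620001-56740000, deep in B, with a mean index of -7.25 against -8.398 in MAD, and held the start of CBLN4. A run of 900 kb at chr3:47860001-48760000 held SLC5A7 and ST6GAL2, of which ST6GAL2, a sialyltransferase, was a DEG higher in GOM. Its expression was 0.744 to 30.4 TPM (median 9.86) in GOM and 0.0788 to 2.48 TPM (median 0.519) in MAD (log2 fold change 3.95, SE 0.25, adjusted p = 3.6e-24). The forkhead genes, CBLN4, SLC5A7 and the other genes of these runs were named after the lengths of the runs were seen.

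Of 10449 tested genes with a place on an autosome, 84 (0.804%) started in a variable bin higher in GOM and 235 (2.25%) in one higher in MAD. Of the 400 DEGs higher in GOM with a place, 38 (9.5%) started in a variable bin higher in GOM and 0 in one higher in MAD. Of the 282 DEGs higher in MAD, 21 (7.45%) started in a variable bin higher in MAD and 1, CAP2, in one higher in GOM. Switches that were A in GOM held the starts of 5 tested genes (0.0479%), among them 2 DEGs higher in GOM and 1 higher in MAD, PON1. Switches that were A in MAD held 2 tested genes (0.0191%), of which 1 was a DEG higher in MAD. The median index difference of gene starts, GOM minus MAD, was 0.20 for DEGs higher in GOM, -0.21 for DEGs higher in MAD and -0.13 for all tested genes. RNA-seq and Hi-C are separate libraries of the same tissues, and the part of cell types in this overlap was not tested.

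CDH1 was the DEG with the largest index difference toward GOM in a called bin. At its start (chr6:18140001-18160000) the index was -0.49 to 1.95 (median 0.73) in GOM and -2.4 to 0.51 (median -0.63) in MAD (difference of means 1.398, SD 0.53 and 0.58, n = 46 and 37, permutation p = 1e-05, all-bin limma adjusted p = 1.1e-16). This bin lay in A in 42 of 46 GOM libraries (91.3%) and in 3 of 37 MAD libraries (8.11%), and it was a switch. SV2B, a synaptic vesicle gene named after its values were seen, was the other GOM DEG in a switch, with A in 39 of 46 GOM and 2 of 37 MAD libraries. The 250 bases before the RefSeq start of CDH1 (chr6:18155987-18156236, minus strand) and of KRT8 (chr5:18180278-18180527, minus strand) are printed here to show the E-box CAGGTG, which repressors of epithelial genes of the SNAI and ZEB families are known to bind. They are read 5′ to 3′ on the strand of the gene, with CAGGTG or its reverse complement CACCTG in capitals.
CDH1: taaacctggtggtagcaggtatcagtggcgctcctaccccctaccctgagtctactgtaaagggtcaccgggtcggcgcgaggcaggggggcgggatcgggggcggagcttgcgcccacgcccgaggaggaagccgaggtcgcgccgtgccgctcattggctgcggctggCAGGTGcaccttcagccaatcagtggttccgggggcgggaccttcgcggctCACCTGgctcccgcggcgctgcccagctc
KRT8: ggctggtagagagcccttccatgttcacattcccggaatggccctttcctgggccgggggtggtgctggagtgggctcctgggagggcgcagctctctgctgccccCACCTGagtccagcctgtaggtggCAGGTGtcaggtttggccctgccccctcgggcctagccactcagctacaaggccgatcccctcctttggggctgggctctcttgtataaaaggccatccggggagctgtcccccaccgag

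CDH1 held 2 matches, which began 80 and 29 bases before the start, and KRT8 held 2 that began 144 and 120 bases before it. Over both strands, 19.3% of the 13094 placed PCGs had a match in this window, as did 18.01% of the tested genes, 20.8% of the 400 DEGs higher in GOM and 17.4% of the 282 DEGs higher in MAD. Of the 11 mesothelial markers higher in GOM, 3 had one. The start of WT1 (chr2:28411217-28411466, plus strand) had no match. A match gives only the letters and not a bound site.

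The bin of WT1 (chr2:28400001-28420000) had a larger difference still but fell in no class, since MAD libraries were split between the compartments. Its index was -0.36 to 3.65 (median 1.84) in GOM and -0.98 to 1.26 (median 0.28) in MAD (difference of means 1.595, SD 0.797 and 0.61, n = 46 and 37, permutation p = 1e-05, all-bin limma adjusted p = 2.7e-14), with A in 97.8% of GOM and 56.8% of MAD libraries. The ISL1 start (chr16:30960001-30980000) stayed in B in both tissues, with -1.17 to 0.41 (median -0.52) in GOM and -2.905 to -0.68 (median -1.91) in MAD (difference of means 1.28, SD 0.36 and 0.56, n = 46 and 37, permutation p = 1e-05, all-bin limma adjusted p = 1.9e-18). At BNC1 (chr7:51640001-51660000) all 46 GOM libraries were in A and 12 of 37 MAD libraries were, with a difference of 1.12 (permutation p = 1e-05). ALDH1A2, HAND2 and CRB2 lay in variable bins higher in GOM (differences 1.08, 0.99 and 0.97, permutation p = 1e-05 for each). GATA6 was also higher in GOM (0.697, permutation p = 1e-05).

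Not all patterning factors with a large difference in expression had one in the index. BARX1 (chr3:43280001-43300000) had an index of -1.23 to 0.68 (median -0.34) in GOM and -1.15 to 0.84 (median -0.196) in MAD (difference of means -0.04, SD 0.399 and 0.498, n = 46 and 37, permutation p = 0.71, all-bin limma adjusted p = 0.79). TLX1 (chr14:112200001-112220000) lay in A in every library of both tissues, with 2.43 to 4.42 (median 3.32) in GOM and 2.21 to 4.41 (median 3.31) in MAD (difference of means 0.01, SD 0.42 and 0.45, n = 46 and 37, permutation p = 0.88, all-bin limma adjusted p = 0.92). The differences at GATA5 and NKX3-2 were 0.16 and 0.06 (permutation p = 0.19 and 0.67). For these 4 genes no difference beyond the spread was seen at a bin size of 20 kb, though edgeR gave log2 fold changes of 6.36, 5.75, 5.45 and 1.91 in expression. EMX2, higher in MAD in expression, showed none either (difference 0.01, permutation p = 0.89).

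Toward MAD, the largest difference among DEGs in called bins was at NKX2-3 (chr14:110720001-110740000), with -0.46 to 1.01 (median 0.33) in GOM and 0.33 to 3.103 (median 2.11) in MAD (difference of means -1.52, SD 0.33 and 0.67, n = 46 and 37, permutation p = 1e-05, all-bin limma adjusted p = 1.2e-19). MYH11 (chr3:7000001-7020000) followed, with 1.93 to 4.42 (median 2.89) in GOM and 3.05 to 5.19 (median 4.402) in MAD (difference of means -1.37, SD 0.62 and 0.53, n = 46 and 37, permutation p = 1e-05, all-bin limma adjusted p = 3.9e-15). It lay in A in every library. The early-response factor EGR1 (chr2:140440001-140460000) had a very high index in both tissues, 5.49 to 8.66 (median 6.93) in GOM and 6.36 to 10.02 (median 8.22) in MAD (difference of means -1.29, SD 0.76 and 0.89, n = 46 and 37, permutation p = 1e-05, all-bin limma adjusted p = 3.4e-09). Its expression was 5.98 to 316 TPM (median 27.1) in GOM and 26.1 to 620.2 TPM (median 166) in MAD (log2 fold change -1.54, SE 0.33, adjusted p = 2.1e-04). EBF3, LSMEM1 and GALNT15 completed the 6 genes named toward MAD (differences -1.34, -1.29 and -1.15, permutation p = 1e-05 for each), and LSMEM1 was the MAD DEG in a switch, with A in 4 of 46 GOM and 33 of 37 MAD libraries. ANKRD6, ST6GAL2, PLCE1 and DSG2 were the other genes named toward GOM (differences 1.35, 1.27, 1.21 and 1.21, permutation p = 1e-05 for each).

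Index and expression did not always go together at fat cell genes. LEP (chr18:20120001-20140000) lay in a variable bin higher in MAD, with 0.84 to 2.78 (median 1.91) in GOM and 1.59 to 3.81 (median 2.64) in MAD (difference of means -0.82, SD 0.39 and 0.54, n = 46 and 37, permutation p = 1e-05, all-bin limma adjusted p = 2.4e-10), while its expression did not differ beyond the spread. PPARG had a difference of -0.42 (permutation p = 0.0019), ADIPOQ of -0.196 (permutation p = 0.078) and TCF21 of -0.01 (permutation p = 0.91). EN1 and IRX3 were higher in MAD (differences -0.86 and -0.91) and TM4SF1 in GOM, by 0.76 (permutation p = 1e-05 for each). SHOX2 and PRRX1 were higher in MAD in the index as well as in expression (differences -0.798 and -0.79, permutation p = 1e-05 for both).

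**Figure D5:**
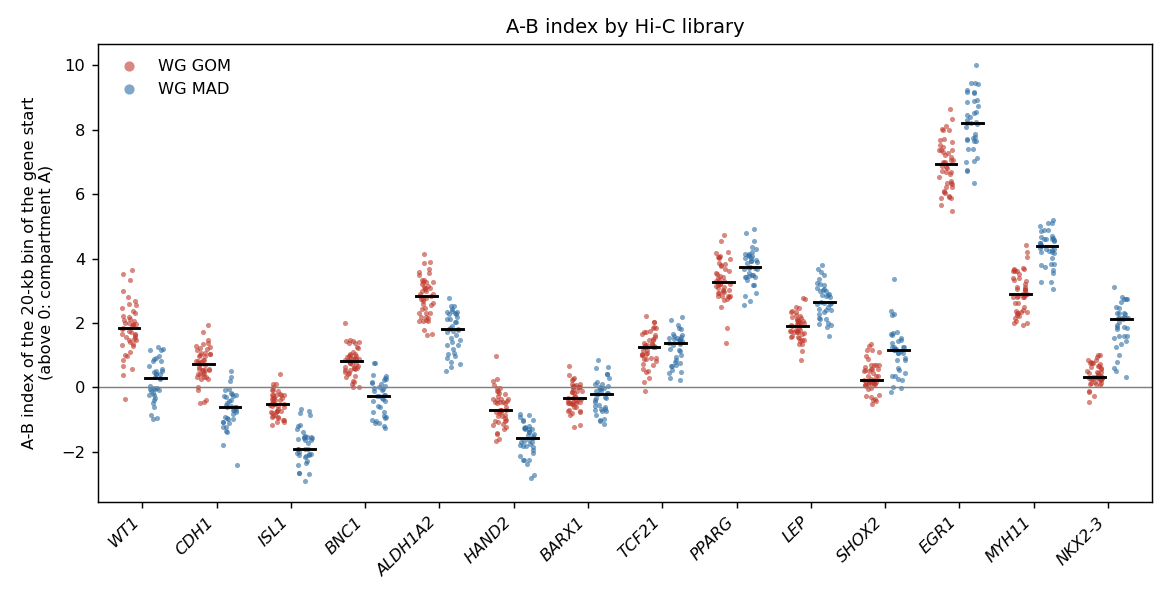
A-B index of the 20-kb bin of the gene start for 14 genes, 1 point per Hi-C library (46 WG GOM in red, 37 WG MAD in blue), with black bars for medians and a grey line at 0, the border of compartments A (above) and B (below). CDH1 lies above 0 in 42 of 46 GOM libraries and in 3 of 37 MAD libraries, the points of BARX1 and TCF21 overlap between tissues, and MYH11 and NKX2-3 lie higher in MAD.

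H3K27ac marks active enhancers, and the authors joined enhancer regions and ranked them by signal with ROSE, which calls the strongest super-enhancers. The 3 pooled GOM tables held 23385, 22471 and 25819 regions with 839, 1492 and 1752 super-enhancers, and the 3 MAD tables held 22368, 25398 and 23198 with 847, 503 and 1404. The labels give the subgroups only as numbers. They are taken to be those that the paper formed by clustering the samples on estimated adipocytes, macrophages and microvascular endothelial cells. Of the 3 pools of a tissue, 1 carries the same subgroup number as a pool of the other. The paper clustered the WG samples of all fats together, so this pair is taken to be alike in estimated cell makeup. In the other pools, and in counts over all 3 pools, tissue and cell makeup cannot be told apart. As the replicates were pooled, no test between the tissues was made. A super-enhancer within 10 kb of the gene in all 3 GOM tables and in none of the MAD tables was found at 38 of the 400 DEGs higher in GOM (9.5%), at 2 of the 282 DEGs higher in MAD (CFAP161 and MYLK), and at 185 of 10449 tested genes (1.77%). Among the 38 were the factors WT1, GATA5 and GATA6, the mesothelial genes KRT7, GPM6A, CLDN15 and RSPO1, and ALDH1A2, CFB, CRB2, CST6, WNT9A, ANKRD6 and IL16. The pattern in reverse was found at 13 of all tested genes (0.124%). The number of super-enhancers per table ran from 839 to 1752 in GOM and from 503 to 1404 in MAD, and a gene in 3 of 3 tables of 1 tissue rests on 3 pools.

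Whether the depots differed in the same way on the other diets was asked by a test of the difference itself, with the WG libraries shared between both tests. Against WL (10 GOM and 10 MAD libraries), the log2 fold change of GOM over MAD was higher in WG for 236 of 14221 genes (1.66%) and lower for 36 (0.253%). Of the DEGs, 9 of those higher in GOM and 7 of those higher in MAD were in the first set and 16 and 1, HEPACAM2, in the second. Against NC (9 and 12 libraries), it was higher in WG for 415 of 14488 genes (2.86%) and lower for 523 (3.61%), with 29 and 15 DEGs in the first set and 17 and 17 in the second. PCGs held under 90% of TPM in 8 and 7 of the WL and in 7 and 2 of the NC libraries of GOM and MAD, and the part of this in the differences was not tested beyond the alternatives. With such libraries left out, 2 GOM and 3 MAD libraries remained in WL and edgeR called 0 genes, with 212 at an unadjusted p below 0.05, and with a term for them against NC, 1467 genes were higher in WG.

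For KRT8, BARX1, SHOX2 and PI16, the medians lay in the same order on the other diets as in WG. KRT8 had 65.9 to 452 TPM (median 187) in GOM and 1.48 to 18.5 TPM (median 3.03) in MAD after weight loss and 31.5 to 178 TPM (median 101.7) in GOM and 0.654 to 42.5 TPM (median 2.702) in MAD on normal diet. BARX1 had 7.67 to 21.2 TPM (median 12.9) in GOM and 0 to 0.739 TPM (median 0.0669) in MAD after weight loss and 1.16 to 5.55 TPM (median 4.07) in GOM and 0 to 0.403 TPM (median 0.0696) in MAD on normal diet. SHOX2 was higher in MAD on both, with 0.927 to 4.72 TPM (median 2.02) in GOM and 6.48 to 30.8 TPM (median 14.8) in MAD after weight loss and 0.507 to 3.11 TPM (median 1.68) in GOM and 3.49 to 15.1 TPM (median 7.47) in MAD on normal diet. PI16 had 22.5 to 94.9 TPM (median 69.4) in GOM and 88.3 to 356 TPM (median 205) in MAD after weight loss and 33 to 73.1 TPM (median 43.8) in GOM and 34.8 to 341 TPM (median 173) in MAD on normal diet. The difference between diets did not pass for these 4 genes (adjusted p = 1.00, 1.00, 0.82 and 1.00 against WL and 0.12, 0.14, 1.00 and 0.51 against NC).

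In the fit of all libraries, the contractile genes ACTG2, DES, CNN1 and MYH11 had a larger fold change between the depots on normal diet than in WG. For ACTG2, CNN1 and MYH11 this call turned on a single library. On normal diet ACTG2 had 0.961 to 14.3 TPM (median 7.404) in GOM and 9.64 to 3814 TPM (median 35.3) in MAD, and its log2 fold change was -6.101, against -2.77 in WG, a difference of 3.34 (SE 0.76, adjusted p = 0.0047). DES, CNN1 and MYH11 differed by 2.92 (SE 0.58, adjusted p = 0.0011), 2.52 (SE 0.59, adjusted p = 0.0051) and 2.38 (SE 0.595, adjusted p = 0.0094). These rested in part on NC MAD replicate 1, which held 3814 TPM of ACTG2 and 5531 TPM of MYH11, where the next highest NC MAD library held 779 and 1477. Without it, an alternative chosen after seeing the data, DES kept its call at 1.53 (SE 0.47, adjusted p = 0.038), and ACTG2, CNN1 and MYH11 did not, at 1.69 (SE 0.65, adjusted p = 0.093), 1.18 (SE 0.49, adjusted p = 0.12) and 1.16 (SE 0.51, adjusted p = 0.14).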

How the data were processed

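RNA-seq, Hi-C and H3K27ac ChIP-seq of WG GOM and WG MAD were analysed from the processed files. The authors estimated transcript abundance with kallisto 0.43.0 and summed it by gene with tximport, and they deposited estimated counts and TPM. The deposited A-B index is a score per bin, made by the authors from balanced and quantile-normalized contact matrices. For ChIP-seq, the authors aligned reads with BWA 0.7.15 and SAMtools 1.3.1, called peaks with SICER (versions from the submitters' processing notes) and deposited the ROSE signal of pooled enhancer regions with its rank and super-enhancer mark.

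Groups were taken from the labels. Of the columns of the count and index tables, 9 in each match no sample and were not used. Counts were rounded and tested with edgeR 4.0.16 (TMM, quasi-likelihood, 2-sided) among genes above 0.5 TPM in at least 80% of the libraries of either group. Standard errors are the log2 fold change divided by the root of F. DESeq2 1.42.0 and limma 3.58.1 on log2(TPM + 1) and log2(TPM + 0.1) were alternatives (R 4.3.3). The index was tested per bin with limma and at gene starts by 2-sided permutation of the means (100000 permutations). No counts lie behind the index, so its precision is the spread between libraries. The edgeR, DESeq2 and limma steps were tested on simulated data. RefSeq genes of Sscrofa11.1 gave 14821 of 21280 PCGs a symbol and 13094 a place, and the promoter sequences. Permutations, summaries and plots were made in Python 3.11.15 (scipy 1.17.1, matplotlib 3.10.9, pandas 2.3.3, numpy 2.4.6).

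Named genes were the 10 DEGs of largest fold change per direction with a symbol and at least 5 TPM in the higher tissue, up to 6 called members per list, defining markers of other cell types, up to 6 DEGs per direction in called bins by index difference, and PPARG, ADIPOQ, LEP, WT1, TCF21, EN1, IRX3 and TM4SF1. Further members complete a list or are said to be named after their values were seen. The groups, lists and tests were chosen with earlier results of these data known. Some members of the lists are not reported here. Alternatives are given in the closing section.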

Additional observations from a re-analysis of the deposited data

Results flagged for a closer look

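Several genes had a difference between GOM and MAD in WG that differed from that on another diet, by the edgeR test of this difference itself (adjusted p below 0.05 over all genes tested). The values are the log2 fold change of GOM over MAD in WG minus that on the other diet, and a positive value is a change toward GOM in WG. Against NC, the epithelial and mesothelial genes CRB2, BNC1 and CST6 had 2.35, 2.07 and 2.78. The contractile genes ACTG2, DES, CNN1 and MYH11 had 3.34, 2.92, 2.52 and 2.38, and the gut mesenchyme factor NKX2-3 had 1.19. C1QTNF3 and G0S2, genes of secreted and lipase-inhibiting proteins of fat cells, had 1.98 and 2.41. Lower values in WG were found for fibronectin (FN1), -1.75, for the cytokine genes CXCL2 and IL1A, -0.9997 and -1.26, and for the macrophage genes VSIG4 and CD68, -1.04 and -1.61. MS4A1 and PDZK1 had -3.05 and -3.41, and both lost their calls without the 3 WG libraries that stood apart. Without NC MAD replicate 1, 9 of these 17 genes were still called, and BNC1, ACTG2, C1QTNF3, CXCL2, VSIG4, CNN1, MYH11 and CD68 were not. With a term for libraries with a low share of TPM on PCGs, 16 of the 17 were called.

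Against WL, the lymphocyte genes CCR7, CD3E, POU2AF1, PAX5 and TNFRSF13C had 3.13, 2.15, 2.33, 2.37 and 1.62. The cytokine gene IL16 had 1.53 and the macrophage receptor MARCO had 3.79. The spleen factor TLX1 had 2.12, while the ligand BMP7 and ANKRD6 had -2.09 and -1.16. All 10 were also called by DESeq2 and without the 3 WG libraries that stood apart, and 0 without the libraries with a low share of TPM on PCGs, when 2 GOM and 3 MAD libraries remained in WL. The values were then -0.49 for CCR7, -0.09 for CD3E, 0.02 for POU2AF1, 1.35 for PAX5, -0.03 for TNFRSF13C, -0.08 for IL16, 2.83 for MARCO, 0.905 for TLX1, -0.104 for BMP7 and 0.035 for ANKRD6, so that 5 of the 10 had turned in sign. The causes of these differences were not tested.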

How the results depend on the processing

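Of the results for single genes, lists, bins and counts under the alternatives, 1805 values of named genes kept their direction and side of the threshold, 137 lost the call, 4 gained it and 6 reversed. The counts of DEGs higher in GOM and in MAD were 529 and 306 by DESeq2, 471 and 340 without libraries with a low share of TPM on PCGs, and 491 and 337 with this share as a covariate. A fold limit of 2 gave 264 and 125, no filter on low genes gave 777 and 799 of 20953 genes, and limma on log2(TPM + 1) gave 380 and 200. Without low-share libraries, CLEC11A, GPD1, G0S2 and APOA1 lost their calls. Leaving out WG GOM replicate 35, MAD replicate 31 or MAD replicate 39 gave 481 to 574 and 302 to 372, in alternatives chosen after seeing the data. Over the 3 the log2 fold change of PDZK1 ran from -2.31 to 0.0612 and that of EPCAM from -0.8146 to 0.2016. Without all 3, PDZK1 reversed to 0.0755 and EPCAM to 0.226, and EPCAM reversed to 0.0007 with the replicate block and to 0.0101 by limma on log2(TPM + 0.1). An index difference above 0.5 gave 8417 and 6934 variable bins, a limit of over 70% of samples gave 317 and 332 switches, and limits of 80% and 20% gave 79 and 69 frequency changes. Quantile normalization of the index gave 3036 and 1649 variable bins, 110 and 73 switches, and the same direction and call for the single genes. The tests against WL gave 449 and 64 genes without the 3 libraries, 0 and 0 without low-share libraries and 56 lower in WG by DESeq2, and that against NC gave 1467 higher in WG with a term for low-share libraries. The cause of these changes was not tested.

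With the replicate number as a block, on the 36 numbers present in both tissues, 575 and 327 genes were DEGs, with 487 and 281 of those above among them, and 3288 and 1756 bins were A/B variables. Of the named genes, PDZK1, CLEC11A, G0S2, STARD4, CCR7, CCL2, POU2AF1, TNFRSF13C, EPCAM, APOA1 and GALNT15 were not called with the block. CCL5 was not called either, so that chemokine genes higher in MAD went from 4 to 1. T and NK cell markers higher in GOM went from 0 to 3, and lymphatic markers higher in MAD from 0 to 2 (PROX1 and RELN). Mitochondria-encoded genes higher in MAD went from 0 to 2 (ND5 and ND6), and PNPLA2 became a DEG higher in MAD. The labels do not say that a number marks a pig, so the main fit did not pair the samples. Even so, same-numbered RNA-seq libraries deviated together in 35 of 36 pairs (r over 0.1, median 0.629, lowest -0.298, against a median of -0.086 for other numbers). Of the MAD libraries, 28 of 36 correlated best with their own number. Same-numbered libraries also mostly shared a side of the main axis of variation, and the part of this axis in their likeness was not tested. In Hi-C, 27 of 37 pairs deviated together (median 0.174). The index comes without contact counts and so its depth per bin is unknown. The counts are estimates of kallisto, which can split reads between paralogs such as the keratins, HOX genes and MS4A or S100A families.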

Other observations

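Beyond FOSB and EGR1, FOS, NR4A1, NR4A3, EGR3, ZFP36, JUNB and ATF3 were DEGs higher in MAD. They are known as early-response genes, which cells switch on within minutes of a stimulus, and were named after their values were seen, so nothing is said of such genes as a group. FOS had 66.4 to 545 TPM (median 191) in GOM and 198 to 1451 TPM (median 665) in MAD, with 24 of 36 MAD libraries above every GOM library (log2 fold change -1.71, SE 0.15, adjusted p = 1.4e-16). NR4A1, NR4A3, EGR3, ZFP36, JUNB and ATF3 had log2 fold changes of -1.99, -1.95, -1.38, -1.26, -1.096 and -0.601 (edgeR adjusted p = 1.8e-07, 9.1e-11, 0.006, 0.0035, 1.6e-07 and 0.001). At NR4A3 the A-B index was also higher in MAD, with 0.92 to 3.37 (median 1.68) in GOM and 1.46 to 4.58 (median 2.68) in MAD (difference of means -0.89, SD 0.66 and 0.74, n = 46 and 37, permutation p = 1e-05, all-bin limma adjusted p = 7.8e-07).

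GRB14, an inhibitor of insulin receptor signalling, was among the leading MAD genes, with 0.372 to 6.93 TPM (median 1.501) in GOM and 1.84 to 19.4 TPM (median 7.96) in MAD and 22 of 36 MAD libraries above every GOM library (log2 fold change -2.37, SE 0.17, adjusted p = 1.3e-20). So was ADAMTS16, a matrix protease, with 0.1405 to 4.397 TPM (median 1.28) in GOM and 1.38 to 23.7 TPM (median 7.14) in MAD (log2 fold change -2.36, SE 0.203, adjusted p = 5.8e-17), and HMCN2, a matrix protein of the hemicentin family, with a log2 fold change of -2.203 (adjusted p = 9.5e-14). ECRG4, a secreted peptide precursor, had 0 to 7.22 TPM (median 0.893) in GOM and 0.211 to 49.99 TPM (median 4.23) in MAD (log2 fold change -2.397, SE 0.29, adjusted p = 1.7e-10).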
